A study of Mus musculus with 16 samples.

Results

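The replication-dependent histone cluster genes were taken as every gene whose symbol begins with Hist1h, Hist2h, Hist3h or Hist4h, 68 of the 23356 genes in the tables. By histone class they were 6 genes of the linker histone H1, 18 of H2A, 19 of H2B, 12 of H3 and 13 of H4. They lie on mouse chromosomes 13 (54 genes), 3 (10 genes), 11 (3 genes) and 6 (1 gene). The RNA came from NIH3T3, a line of mouse fibroblasts that, according to the study's methods, carried a stable transgene for superfolder GFP joined to a destabilizing domain, in every group. The 4 groups held 4 replicate libraries each, 1 group untreated (control) and 3 harvested after 45, 135 or 405 min with the proteasome inhibitor bortezomib. The labels gave no dose and no vehicle-treated libraries at the later times, and nothing stated that the replicates were separate cultures, so p-values measure only the spread between these libraries. Fewer cells of a kind and less RNA per cell cannot be told apart in such bulk libraries.

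Histone cluster genes supply the bulk of the histones that package newly copied DNA, and their transcripts are made mostly in S phase. H2A, H2B, H3 and H4 form the nucleosome core and H1 binds the DNA between cores. Most of their transcripts have no introns and no poly(A) tail, and end instead just after a conserved stem-loop that is bound by the stem-loop binding protein Slbp. Selection on oligo(dT) therefore leaves most of them behind, whereas libraries made from total RNA can keep them.

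The stem-loop was searched as 2 arms of 6 bases that pair, the first beginning with GG, around a loop of 4 bases, within 150 bases after the stop codon on the NCBIM37 assembly (mm9). It was found in 64 of the 66 members with an open reading frame, against 96 of 21862 other coding genes (0.439%). It began 22 to 59 bases after the stop codon. In all 51 members of H1, H2A, H2B and H3 that carried it the first arm read GGCTCT, and the 13 H4 genes had GGCCCT or GGTCCT instead. The sequences of 7 members that the results turn on are shown 5′ to 3′ with the arms in capitals and the loop and 5 flanking bases on each side in lower case.
Hist1h1e: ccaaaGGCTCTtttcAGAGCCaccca
Hist3h2a: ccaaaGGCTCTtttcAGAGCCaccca
Hist2h2bb: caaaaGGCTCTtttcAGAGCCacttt
Hist1h3f: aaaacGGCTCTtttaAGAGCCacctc
Hist1h3g: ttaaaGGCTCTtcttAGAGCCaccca
Hist1h4d: ccaaaGGCCCTtttcAGGGCCactac
Hist4h4: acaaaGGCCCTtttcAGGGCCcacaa
Both genes that took most of the histone fragments (below) carried the structure, Hist2h2bb with its arms at chr3:96074094-96074109 on the plus strand and Hist4h4 at chr6:136752519-136752534 on the minus strand. No stem-loop was found by this search for Hist1h2an and Hist2h2be, and the pseudogenes Hist2h3c2 and Hist3h2bb-ps were not searched.

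The libraries were of 2 kinds. Ribosomal protein genes, which are among the most abundant poly(A) mRNAs of a growing cell, took 4.25% to 9.42% of the fragments in 7 libraries and 0.398% to 1.21% in the other 9. The 7 were replicates 1 and 2 of both 45 and 135 min and replicates 1, 3 and 4 of 405 min, and no control was among them. The threshold of 4% lay between 405 min replicate 3 at 4.25% and control replicate 2 at 1.21%. The depth was 1385231 to 19930371 fragments in the 7 and 570323 to 1469949 in the 9. Summed fibroblast markers (8 of 8 present, Col1a1, Vim and Fn1 among them) stood at 3244 to 19667 FPM (fragments in a gene per 1000000 fragments assigned to genes in that library) in the 7 and 242 to 1473 in the 9. Olfactory and vomeronasal receptor genes, which fibroblasts are not known for, took 4.16% to 5.13% in the 9 and 0.00556% to 2.62% in the 7. All levels below are FPM unless a length is named.

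Of the 68 members, 62 had a fragment in at least 1 library. The 6 at 0 throughout were Hist1h2ad, Hist1h2ap, Hist1h2bq, Hist1h2br, Hist1h4n and Hist2h2aa1, and 5 of these belong to the 4 pairs of members with identical coding sequences. In each such pair at least 1 member was at 0, while its partner (Hist1h2ao, Hist1h4m or Hist2h2aa2) could hold fragments. More widely, 48 of 58 members compared shared 95% or more of their coding sequence with another member, so how fragments were divided among them is uncertain. Between 12 and 40 members were detected in each of the 9 libraries and 15 to 60 in each of the 7. A count of 0 allowed a level of up to 5.26 FPM in the shallowest library (135 min replicate 3) and 0.151 FPM in the deepest (405 min replicate 4), counting error only. In 135 min replicate 3 the 12 members detected had 8 fragments or more each and the other 56 had none.

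**Figure D1:**
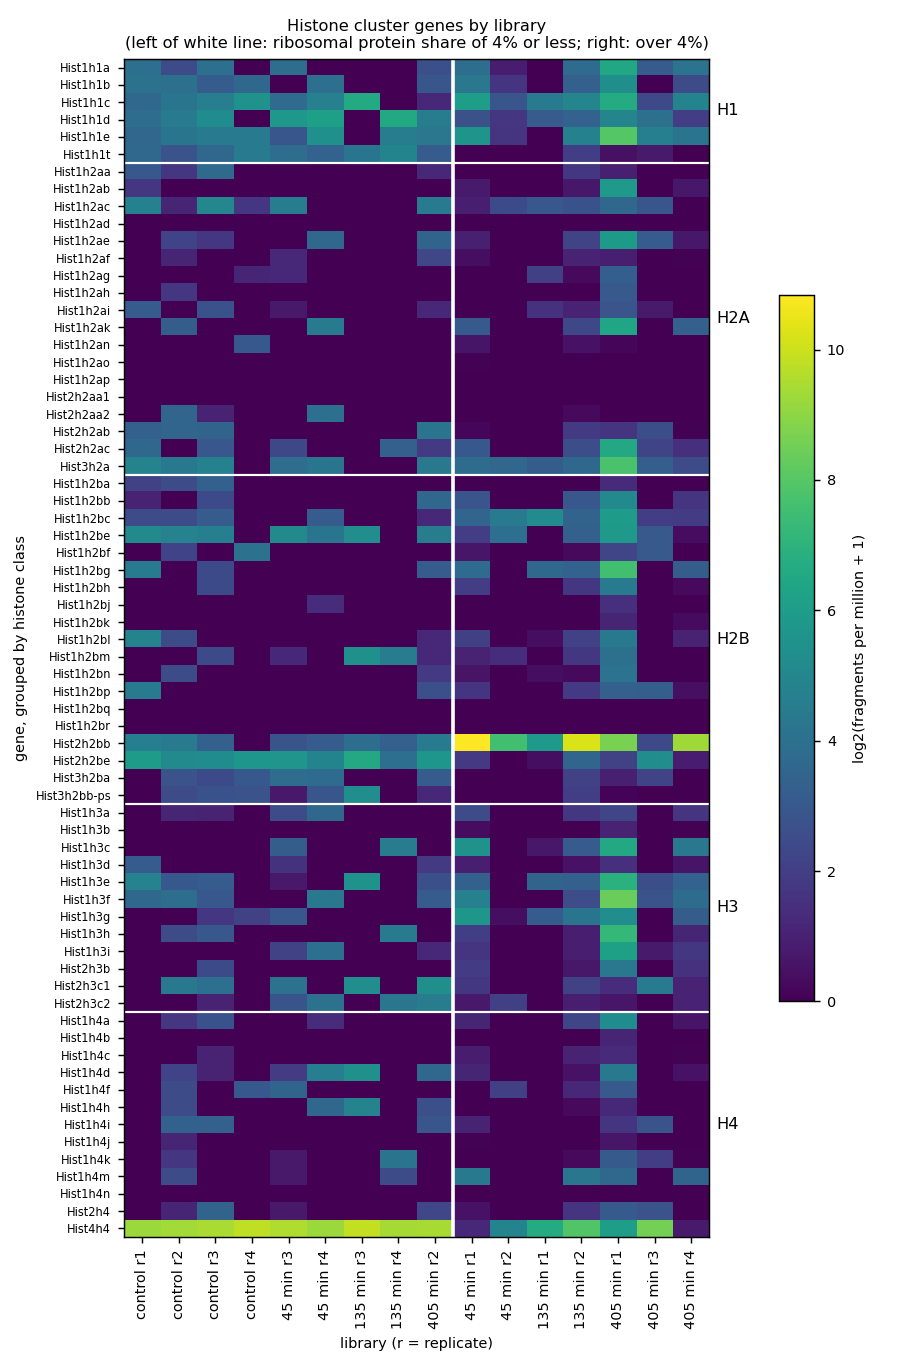
Level of each of the 68 histone cluster genes (rows, grouped by histone class) in each of the 16 libraries (columns), as log2(FPM + 1). Hist4h4 is bright in all 9 libraries left of the white line, Hist2h2bb is bright in 6 of the 7 on the right, and 405 min replicate 1 holds signal in 60 of the 68 rows.

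All members together took 955 to 1404 FPM in the 9 libraries and 276 to 2877 in the 7. The controls were close to each other, at 1016, 987, 1097 and 1097. Over 4%, the sums were 2244 and 291 after 45 min, 276 and 1699 after 135 min, and 2877, 591 and 808 after 405 min. Thus the 7 differed from each other by 10.4 times and the 9 by 1.47 times, and libraries of a single time lay on both sides of the controls. The 95% Wilson interval of the highest, 405 min replicate 1, was 2851 to 2904, counting error only.

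A pair of genes made up most of these sums. Hist4h4, the single H4 gene on chromosome 6, and Hist2h2bb, an H2B gene on chromosome 3, together held 60.0% to 82.0% of the histone fragments in all but 135 min replicate 1 (57.6%), 135 min replicate 2 (84.2%) and 405 min replicate 1 (16.4%). Which of them led differed between libraries. Hist4h4 held 59.1% to 81.8% of the histone fragments in the 9 libraries, where Hist2h2bb held 0 to 2.44%. In the 7, Hist2h2bb held 65.1% to 81.9% in both 45 min libraries, 135 min replicate 2 and 405 min replicate 4.

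Hist4h4 stood at 601, 648, 697 and 897 FPM in the controls. In the other libraries of 4% or less it was at 755 and 589.5 at 45 min, 908 and 669 at 135 min and 683 at 405 min, so that the 9 libraries spanned 589.5 to 908. In the libraries over 4% it was at 1.31 and 28.3 at 45 min, 101 and 236 at 135 min, then 65.7, 386 and 0.702 at 405 min. Every one of the 7 lay below every one of the 9. Per effective kilobase, the length at which a fragment can start, it was 12.6 to 19.5 times as dense as all genes together in the 9 libraries and 0.0151 to 8.28 times in the 7. The gene length that the deposited FPKM values imply was about 2879 bases, against 312 bases for Hist4h4 in the GENCODE M1 annotation (chr6:136752589-136752900, minus strand, 1 exon), so most of the counted region lies outside the coding sequence.

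Hist2h2bb went the other way in 6 of the 7 libraries. It was at 24.8, 22.1, 8.98 and 0 FPM in the controls and between 6.12 and 20.8 in the other libraries of 4% or less. Over 4% it stood at 1838 and 189 at 45 min, 58.0 and 1194 at 135 min, then 405, 4.33 and 633 at 405 min. Only 405 min replicate 3, the library nearest the 4% threshold, lay within the range of the 9. The implied gene length was about 493 bases, whereas GENCODE M1 lists 2 exons and 1511 bases (chr3:96073644-96082924, plus strand). Across the 7 libraries its level and that of the remaining members did not keep one order, since 45 min replicate 1 was the highest for Hist2h2bb and 405 min replicate 1 for the others.

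**Figure D2:**
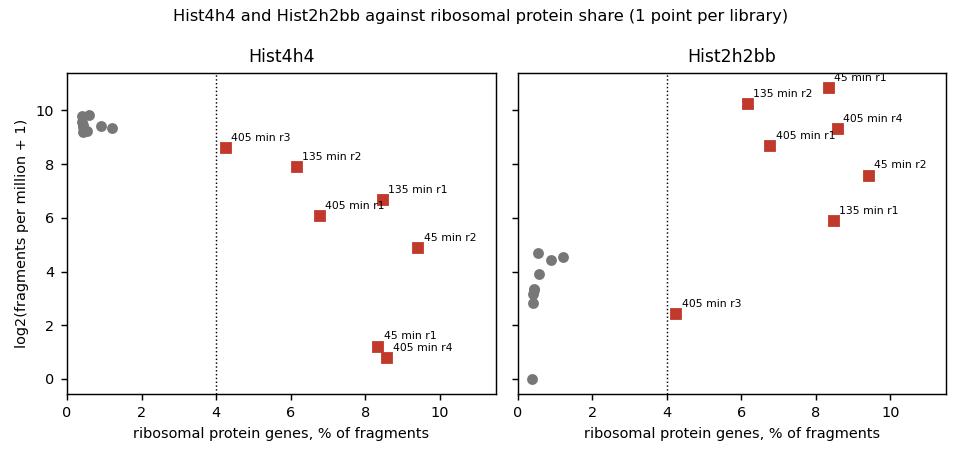
Level of Hist4h4 (left) and Hist2h2bb (right) as log2(FPM + 1) against the share of fragments in ribosomal protein genes, with 1 point per library (grey circles 4% or less, red squares over 4%, dotted line at 4%). All 7 red points lie below the grey ones for Hist4h4, and 6 of 7 lie above them for Hist2h2bb, the exception being 405 min replicate 3.

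The libraries over 4% were compared with the rest in a fit with time as a term (edgeR quasi-likelihood test, Benjamini-Hochberg adjustment over 5030 genes with a count in every library). This asked how histone levels differed between the kinds of library. The kinds were set from the counts of these same libraries and not from the labels, so the p-values do not compare groups fixed beforehand. Of the genes tested 53.3% were called, 28.7% higher and 24.6% lower over 4%. Hist4h4 was the only member with a count in all 16 libraries. It was called lower, by a log2 fold change of -3.01 ± 1.0 (SE, 7 and 9 libraries in the fit, edgeR adjusted p = 0.0179). Because no control was over 4%, with time as a term the controls entered the spread but not this difference. It rests on the bortezomib libraries. The adjusted p was 0.0555 with the replicate number as a block, and 0.0841 and 0.0891 with wider filters on low counts. Without 45 min replicate 2 it was 0.0538, and Hist2h2be, which then passed the filter, was called lower at -2.84 ± 0.95 (SE, edgeR adjusted p = 0.0239).

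Hist2h2bb missed that filter through its 0 in control replicate 4. Among the 12 bortezomib libraries, in each of which it had a count, it was called higher over 4% with a log2 fold change of 5.97 ± 1.21 (SE, 7 and 5 libraries, edgeR adjusted p = 0.00187), where 48.1% of 5408 genes were called. Hist4h4 was called lower there, at -3.08 ± 1.13 (edgeR adjusted p = 0.0362). For Hist4h4 this is almost the same comparison as above, which also rested on these 12 libraries, so it adds no separate support. With no filter 62 members could be tested, and 4 were called higher (Hist2h2bb and Hist1h2bc and Hist1h2bg of class H2B, and Hist1h3g of class H3) and 0 lower, where 11.7% of all genes were called higher and 0.738% lower. That share of members, 4 of 62, was below the background, and Hist1h2bg and Hist1h3g were each at 0 in 6 of the 9 libraries, and in 2 and 1 of the 7.

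Only Hist4h4 and Hist1h1t had all 7 libraries below all 9, which 6.22% of 22375 genes with a fragment in any library did. No member had all 7 above all 9, as 4.42% of genes did. Hist1h1t, the linker histone of the testis, stood at 5.80 to 28.4 FPM in the 9 libraries. It was at 0 in 45 min replicates 1 and 2, 135 min replicate 1 and 405 min replicate 4, and at 3.02, 0.394 and 0.722 in the other libraries over 4%. Hist2h2be, an H2B gene in which no stem-loop was found, was nearly separated in the same direction. It was at 14.8 to 92.9 FPM with a median of 49.7 in the 9 libraries and at 0 to 39.0 with a median of 2.5 in the 7, where 405 min replicate 3 was again the highest.

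Among the linker histones, the summed H1 level was 63.1 to 162 FPM in the 9 libraries, with a median of 101. Over 4% it was 152 and 13.8 at 45 min, 28.5 and 91.0 at 135 min, then 509.7, 52.7 and 70.0 at 405 min. The somatic variants Hist1h1e, Hist1h1c and Hist1h1d were the most abundant by mean FPM. Hist1h1e reached 249.9 in 405 min replicate 1 and was at 0 to 47.7 in the other 15 libraries. Hist1h1c ranged over 0 to 98.2 in the 9 libraries and 4.33 to 102 in the 7, with medians of 17.4 and 28.9. Hist1h1d had the lower median over 4%, 7.61 against 23.4, and Hist1h1a the higher, 12.9 against 4.64, with ranges that overlapped in both cases.

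H2A summed to 0 to 95.4 FPM in the 9 libraries (median 59.2), with the 0 in 135 min replicate 3. Over 4% it was 31.0 and 15.2 at 45 min, 19.97 and 38.6 at 135 min, then 539, 32.5 and 16.7 at 405 min. Hist3h2a, the most abundant of the class, stood at 212 in 405 min replicate 1, at 4.72 to 13.2 in the other 6 libraries over 4% and at 0 to 28.2 in the 9. Hist2h2ac was at 91.4 in that library and at or below 11.3 in all others. Hist1h2ac did not follow them, with 11.3 there and up to 31.4 in control replicate 3. Hist3h2a overlaps Trim17 in the annotation, and the sources used here do not say whether counting used the strand.

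H2B without Hist2h2bb summed to 37.5 to 212 FPM in the 9 libraries (median 99.6). Over 4% it was 45.7 and 37.7 at 45 min, 49.8 and 63.2 at 135 min, then 439, 68.6 and 16.1 at 405 min. Hist1h2bc had a fragment in each of the 7 libraries, at 2.81 to 62.8 with a median of 10.8, and was at 0 to 8.01 with a median of 1.30 in the 9. Hist1h2be, whose annotated gene overlaps Gm11398, had medians of 7.22 over 4% and 24.7 in the rest. Hist1h2bg stood at 191 in 405 min replicate 1 and at 0 to 21.5 in the other 15 libraries.

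H3 summed to 3.47 to 84.2 FPM in the 9 libraries (median 47.6). Over 4% it was 151 and 3.44 at 45 min, 18.7 and 48.9 at 135 min, then 821, 32.5 and 60.5 at 405 min. Hist1h3f, the most abundant, stood at 325 in 405 min replicate 1 and at 0 to 25.4 in the other 15 libraries. Hist1h3e reached 119 and Hist1h3c 93.1 in that library. Hist1h3c was otherwise highest in 45 min replicate 1, at 47.1, and was at 0 in every control. Hist2h3c1, which overlaps Hist2h2aa1, had the lowest ratio of medians in the class, 1.58 over 4% against 14.6.

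H4 without Hist4h4 was the smallest class by its median, at 0 to 70.1 FPM in the 9 libraries (median 26.9). Over 4% it was 24.8 and 3.11 at 45 min, 0 and 27.2 at 135 min, then 97.8, 14.4 and 11.2 at 405 min. Hist1h4d reached 42.1 in 135 min replicate 3 and Hist1h4m 20.1 in 45 min replicate 1. In no histone class did the 7 libraries separate from the 9 once the pair was set aside.

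**Figure D3:**
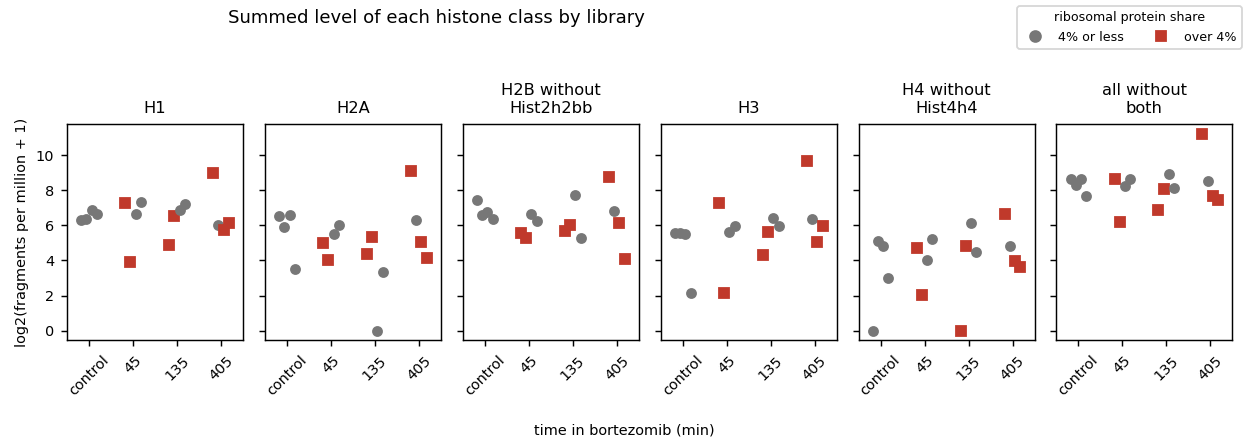
Summed level of H1, H2A, H2B without Hist2h2bb, H3, H4 without Hist4h4 and all members without both, as log2(FPM + 1) by time in bortezomib, with 1 point per library (grey circles 4% or less, red squares over 4%). In each panel the ranges of the red and grey points overlap, and 405 min replicate 1 is the highest of the 16 points.

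Bortezomib was then compared with control over all 16 libraries, to ask whether histone levels followed the time in the inhibitor. At 45, 135 and 405 min, edgeR called 0 of 5030 genes (0%) and 12.9%, 9.18% and 16% had an unadjusted p under 0.05. DESeq2 called 330, 173 and 404 genes at the 3 times, none of them a member. Hist4h4, the only member tested, had log2 fold changes of -1.06 ± 1.36, -0.55 ± 1.35 and -1.23 ± 1.37 (SE, 4 and 4 libraries, edgeR adjusted p = 0.754, 0.906 and 0.606). With the kind of library as a term these were -0.77, 0.74 and 0.81, so the sign at 135 and 405 min depended on that term. Dropping the filter let 62 members be tested, and 0 were called at any time. By the unadjusted p alone (under 0.05), 3 of them were higher and 3 lower than control after 45 min, against 5.56% and 2.72% of 22359 genes. After 135 min it was 2 and 2, against 3.01% and 0.617%. After 405 min it was 13 and 1, against 8.87% and 0.358%. Without Hist2h2bb and Hist4h4, the members summed to 2407 FPM in 405 min replicate 1. They summed to 363, 201 and 174 in replicates 2 to 4, against a control median of 354. No unfiltered fit left out 405 min replicate 1, so whether the 13 rest on that library was not tested.

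Hist1h3i alone had all 4 libraries of a time above all 4 controls, at 405 min, as did 2.69% of genes. It stood at 70.1, 1.30, 0.722 and 2.41 FPM at 405 min and at 0 in the controls, in which a count of 0 allowed up to 3.37 to 3.48 FPM. The 3 lower values at 405 min are thus under what could be told from the controls at this depth.

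Within the 9 libraries of 4% or less, 45 and 135 min were compared with control, and 405 min had a single library. For each of these times edgeR called 0 of 8366 genes (0%), while 2.61% and 10.3% respectively had an unadjusted p below 0.05. At 135 min this count moved with single libraries, since 100 genes were called without 135 min replicate 3 and 468 without 135 min replicate 4, none of them a member. Each of these fits leaves a lone 135 min library, assumed to vary like the other groups. The 3 members that could be tested were Hist1h1t, Hist2h2be and Hist4h4. Hist4h4 differed from control by -0.07 ± 0.23 at 45 min and by 0.03 ± 0.23 at 135 min on the log2 scale (SE, 2 and 4 libraries each, edgeR adjusted p = 0.999 and 0.981). Both values are smaller than their errors.

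Within the 7 libraries over 4% there were no controls, and the course ran from 45 min (2 libraries) through 135 min (2) to 405 min (3). The 6 members with a count in each of the 7 were Hist1h1c, Hist1h1d, Hist3h2a, Hist1h2bc, Hist2h2bb and Hist4h4. From 45 to 405 min edgeR called 0 of 8605 genes (0%), 7.16% had an unadjusted p under 0.05, and none of the 6 members did. DESeq2 called 62 genes and no member. The log2 fold changes were 3.24 ± 1.85 for Hist4h4, 2.57 ± 1.37 for Hist3h2a, 1.96 ± 1.13 for Hist1h1d, 0.44 ± 1.28 for Hist1h2bc, 0.32 ± 1.13 for Hist1h1c and -1.44 ± 1.54 for Hist2h2bb (SE, 3 and 2 libraries, edgeR adjusted p = 0.692 to 0.949). Their median was 1.2 against 0.14 over all genes tested. Without 405 min replicate 1, Hist3h2a was at -0.84, Hist1h2bc at -2.43 and Hist1h1c at -0.92, so each changed sign. Hist1h1c also did so without 45 min replicate 2 (-0.47), and Hist1h2bc (-0.0046) and Hist2h2bb (0.94) without 45 min replicate 1. From 45 to 135 min edgeR called 0 of 8605 genes as well, 1.64% had an unadjusted p under 0.05, DESeq2 called 3 genes, and no member was called by either.

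In the course, 405 min replicate 1 stood apart from the other libraries of its time. Without Hist2h2bb and Hist4h4, the members summed to 405 and 73.2 FPM at 45 min, 117 and 269 at 135 min, then 2407, 201 and 174 at 405 min, and to 200.03 to 482 in the 9 libraries. Of the 62 members detected anywhere, 29 had their highest level of all 16 libraries in 405 min replicate 1, 4 of H1, 7 of H2A, 8 of H2B, 7 of H3 and 3 of H4. The matching share over all genes was not computed, so this count cannot be called particular to histone genes. That library had 5.65% of all genes at 0, the lowest of the 16. It held 4947 fragments of Hist1h3f, 3803 of Hist1h1e, 3230 of Hist3h2a, 2901 of Hist1h2bg and 2234 of Hist1h3h. Its 15213862 fragments were fewer than the 18381114 of 45 min replicate 1 and the 19930371 of 405 min replicate 4, which detected 47 and 40 members against its 60. At the depth of the shallowest library, 49.1 members would be expected in it and 11.97 to 37.6 in the others.

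Outside the histone family, 13 RNAs that carry no poly(A) tail were listed, of which 10 were in the tables and none passed the filter over all libraries. The same library was the highest for 3 of them, Rmrp, Rpph1 and Rprl3, with no share over all genes computed for comparison. Rmrp, the RNA of the RNase MRP enzyme, stood at 264 FPM there, at 0.722 to 21.3 in the other libraries over 4% and at 0 to 5.80 in the 9. Rpph1, the RNA of RNase P, was at 62.1 there, at 2.34, 0.431 and 1.51 in 45 min replicate 1, 135 min replicate 2 and 405 min replicate 4, and at 0 in the other 12 libraries. Rprl3 stood at 34.6 there and at 18.5 in control replicate 4. The others did not follow. Terc, the telomerase RNA, was at 0.723 there and at 15.6 in 405 min replicate 2, and Rnu11, Rnu12, Vaultrc5, Rprl1 and Rprl2 were highest in 45 min replicate 3, at 4.76 to 10.2, against 0 to 0.854 in 405 min replicate 1. Rnu73b was at 0 throughout. Rmrp and Rpph1 were chosen for plotting after their values were seen. The part of library preparation in these levels was not tested, since the labels give every library the same protocol.

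Members were also split by where the annotated transcript ends. In 41 members (without Hist4h4) it ended no more than 100 bases past the stem-loop, and in 21 (without Hist2h2bb) it ran on further. These ends are those of GENCODE M1, and the gene models used for counting differed for some members. Hist1h1e, of the first set, was counted over about 1931 bases against 748 annotated, and held 249.9 FPM in 405 min replicate 1. Hist1h3e, of the second, was counted over about 411 bases, its coding length. The sums thus do not separate transcripts that end at the stem-loop from longer ones. The first set summed to 245 and 10.2 FPM at 45 min, 12.4 and 131 at 135 min, then 1167, 52.0 and 98.8 at 405 min in the libraries over 4%. The second summed to 155 and 59.9, 104 and 123, and 1236, 110 and 73.8. In 405 min replicate 1 both sets were thus at their highest. In 45 min replicate 2 and 135 min replicate 1, where the fewest members were detected among the 7, the first set stood well below the second. That order was not particular to them. It also held in 405 min replicates 1 and 3 and in each of the 9 libraries of 4% or less. In those 9 the first set summed to 60.1 to 155 FPM and the second to 76.3 to 238.

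**Figure D4:**
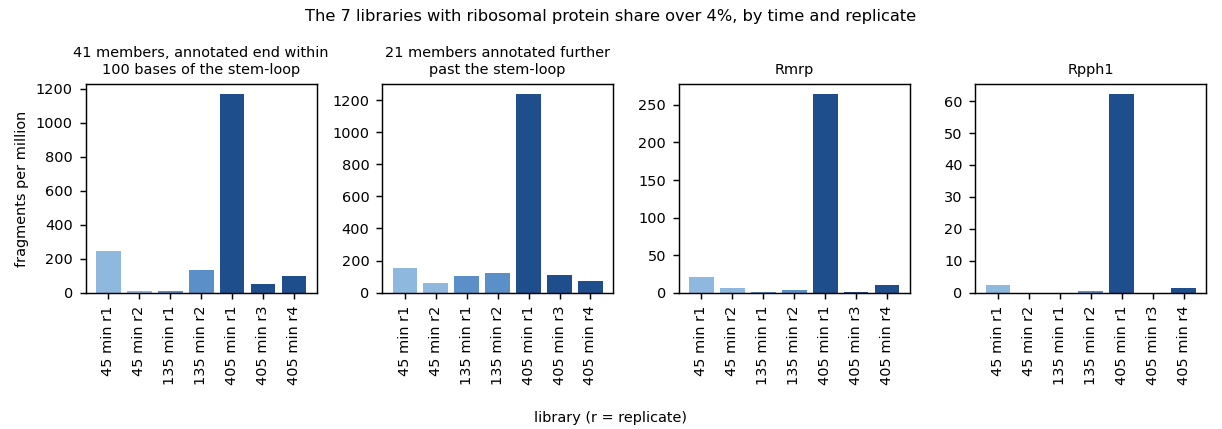
Bars give FPM in each of the 7 libraries over 4%, from light to dark for 45, 135 and 405 min (each panel has its own axis from 0). The panels show members annotated to end near the stem-loop, members annotated further past it, Rmrp and Rpph1. The annotated ends are not always those of the counted gene models. All panels have their tallest bar in 405 min replicate 1, at 1167, 1236, 264 and 62.1 FPM, and the other 405 min libraries lie within the range of 45 and 135 min, apart from Rmrp in 405 min replicate 3 at 0.722, the lowest of the 7.

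Per effective kilobase, the members without the pair were 38.6% to 93.1% as dense in fragments as all genes in the 9 libraries. The receptor genes, leaving out the densest 5%, were at 56.4% to 72.6% there. In the 7 libraries the members were at 78.2%, 14.1%, 22.6%, 51.9%, 465%, 38.8% and 33.7% in order of time and replicate, and the receptors at 0.0596%, 3.19%, 4.55%, 19.4%, 4.56%, 35.5% and 0.0986%. Histone and receptor densities thus differed least over 4% in 405 min replicate 3, which also had the lowest ribosomal protein share and the highest Hist4h4 of the 7. The lengths used for all libraries were read outside those of replicate 1, whose own implied lengths differed by a median of 16.9%.

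**Figure D5:**
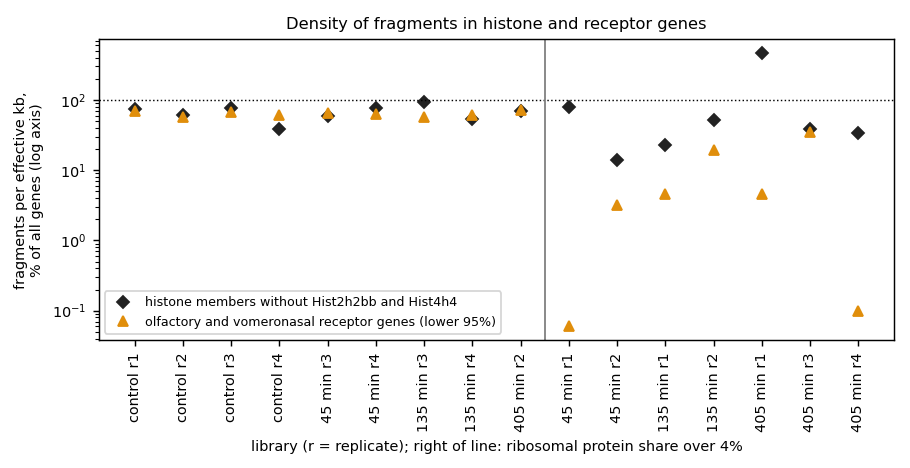
Fragments per effective kilobase, as a percentage of that of all genes (log axis, dotted line at 100%), for the members without Hist2h2bb and Hist4h4 (black diamonds) and for receptor genes (orange triangles), by library. Left of the line both lie between 38.6% and 93.1%, and right of it the members lie above the receptors in all 7 libraries, most closely in 405 min replicate 3.

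Other genes of histone supply were listed for comparison. Replication-independent histone genes, most of whose mRNAs carry poly(A) tails, summed to 1205 to 4322 FPM over 4% and 303 to 817 in the rest. Of 11 listed, 5 were tested between the kinds of library and 3 were higher over 4%, as 28.7% of all genes were (53.3% in either direction), with log2 fold changes of 5.04 ± 0.86 for H2afz (edgeR adjusted p = 0.000228), 3.87 ± 0.58 for H3f3b (edgeR adjusted p = 0.000112) and 3.15 ± 0.66 for H3f3a (edgeR adjusted p = 0.000988). The median of the 5 was 3.15 against 0.04 over all genes tested. H2afz, H3f3a and H3f3b also had the highest mean FPM of the 11. By median, H2afx (7.86 FPM over 4% against 36.8), H1fx (2.04 against 21.5), H2afj and H2afy2 were lower over 4%. The other listed genes had the higher median over 4%. The sum of the 11 did not overlap between the kinds of library, unlike that of the cluster genes. Nor did the sum of the 15 processing and decay factors taken up next, at 1029 to 1516 FPM over 4% and 605 to 785 in the rest. How often sums of other gene sets separate was not computed, so this is not particular to replication-independent histone genes.

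Of 15 factors that process or degrade histone mRNA, 10 were tested, and 6 were higher and 1 lower over 4%, against the same 28.7% and 24.6% of all genes. Slbp had a log2 fold change of 4.21 ± 0.77 (edgeR adjusted p = 0.000371), Npat, which activates histone transcription at S phase, 1.75 ± 0.43 (edgeR adjusted p = 0.00325) and Casp8ap2 1.79 ± 0.48 (edgeR adjusted p = 0.00517). Eri1, the exonuclease that trims the stem-loop end, was higher by 1.49 ± 0.42 (edgeR adjusted p = 0.0067). Lsm11, a subunit of the U7 particle that cuts histone pre-mRNA, was the 1 that was lower, at -2.25 ± 0.63 (edgeR adjusted p = 0.00706). Zfp473, also listed, was not tested because of its counts of 0. It stood at 0 to 25.3 FPM in the 7 libraries and at 27.2 to 77.8 in the others. All 7 were thus below all others, as for 6.22% of genes. Within the 7 libraries Slbp stood at 201 and 516 FPM at 45 min, 615 and 182 at 135 min, then 71.6, 243 and 167 at 405 min, so that the library with the most histone fragments had the least Slbp.

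Of 20 S phase genes 10 were tested, and 4 were higher and 2 lower over 4%, where 28.7% and 24.6% of all genes were. Pcna, the sliding clamp of DNA polymerase, had a log2 fold change of 4.21 ± 0.88 (edgeR adjusted p = 0.000994), and Tyms, thymidylate synthase, one of -2.79 ± 0.82 (edgeR adjusted p = 0.00928). Tyms stood at 3900 to 5488 FPM in the 9 libraries and at 72.3 to 2969 in the 7, with the 2969 in 405 min replicate 3. Pcna was lowest of the 7 in 405 min replicate 1, at 378, and reached 2191 in 135 min replicate 1. Mcm4 was at 284 to 1140 and Rrm1 at 149 to 570 in the 7. In the 405 against 45 min comparison none of the 20 S phase genes tested, the 12 processing factors or the 9 replication-independent histone genes was called, and 2 of each had an unadjusted p under 0.05.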

How the data were processed

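RNA-seq libraries of NIH3T3 cells (16, in 4 groups of 4 by time in the sample titles) were used. Per the labels total RNA was prepared with a NuGEN Encore Complete kit, while the study's methods describe oligo(dT) beads and name a NuGEN kit in addition, without saying which libraries were made how. Reads were mapped to mm9 with RefSeq genes on DNAnexus, and the labels' processing notes name mm10. Coordinates here are those of NCBIM37 with GENCODE M1. The aligner is not given in the sources used here.

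The authors deposited estimated counts per gene for each library, which were rounded (98.7% to 99.8% were whole to within 0.001). The authors also deposited scaled fragments (a signal, 1 factor per library) and FPKM values, from which only the gene lengths they imply were read, for 60 members. For 27 of 58 members that length was the coding length to within 3 bases, so fragments over the stem-loop were not counted. Lengths were medians over the 12 libraries other than those of replicate 1. The lengths that the replicate 1 libraries imply differed from these by a median of 16.9%. Dates had replaced 27 symbols, none a member, in the file of 45 min replicate 1, and these were restored by row order. No 2 of 120 library pairs were identical.

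Counts were tested by quasi-likelihood in edgeR 4.0.16 under R 4.3.3, after TMM scaling, over genes with 1 count or more in every library of the fit, and calls at an adjusted p under 0.05 over all genes. Standard errors are the log2 fold change over the square root of F. Alternatives were filterByExpr, no filter, RLE factors, DESeq2 1.42.0, fewer or other terms, the replicate block and leaving out each library. On simulated counts with changes of 4 times, the fit recovered the changed genes at a low dispersion and none at that of these libraries. Genes were named by a rule: the 3 highest by mean FPM in each histone class, called members, and the largest and smallest ratios of medians among members with a median above 0 in both kinds of library. Hist1h2bg, Hist1h3g, Hist1h3h, Hist1h3i and Hist1h1t were named after their values were seen. The members, lists and split at 4% were chosen with earlier results of these data known.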

Additional observations from a re-analysis of the deposited data

Results flagged for a closer look

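Over 10 quantities in 4 groups, 4 of 40 tests found a library far from the other 3 of its time by Dixon's criterion (the gap to the nearest library over the range, past its 95% critical value, on log2(FPM + 1) for levels), where chance flags about 1 in 20. At 405 min, replicate 1 had an H1 sum of 509.7 FPM against 52.7 to 70.0 in the others. At 45 min, replicate 2 had 73.2 FPM in the members without Hist2h2bb and Hist4h4 against 307 to 405. Control replicate 4 had an H3 sum of 3.47 FPM against 44.9 to 46.4. At 135 min, replicate 2 detected 53 members against 12 to 16. No explanation of these was tested.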

How the results depend on the processing

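The counts of called members (0 in each comparison with control and in each time course) were the same under every alternative run, those leaving out a library included. Few members could be tested in most of these fits, 1 in each main comparison with control over all libraries. The main edgeR fits there called 0 genes of any kind, so an unchanged 0 says little about the members. Between the kinds of library 1 member was called, and 4 were with no filter, 2 in bortezomib libraries only and 1 to 2 when a library was left out (Hist2h2bb joined without control replicate 4, in which it is at 0, and Hist2h2be took the place of Hist4h4 without 45 min replicate 2). Hist4h4 in that comparison kept its direction but not its call with filterByExpr (-2.46, where Hist2h2bb was the 1 called), with no filter (-2.34) and without 45 min replicate 2, with a range of -3.63 to -2.40 over the libraries left out. DESeq2 gave no p for it. With the kind of library as a term, Hist4h4 against control turned to 0.74 at 135 min and 0.81 at 405 min. Within 4% or less, leaving out a library moved it over -0.28 to 0.12 at 45 min and -0.13 to 0.14 at 135 min, where filterByExpr gave -0.093. From 45 to 405 min over 4% the ranges were -0.92 to 2.76 for Hist1h1c, -2.43 to 1.14 for Hist1h2bc, -2.39 to 0.94 for Hist2h2bb and -0.84 to 3.10 for Hist3h2a, with a change of sign in each. The median H4 sum in libraries of 4% or less (711 FPM) was 584 with TMM scaling and 26.9 without Hist4h4, the latter chosen after seeing the data, as were the sums without Hist2h2bb or 405 min replicate 1 and the count of members expected at the smallest depth. Over all genes, edgeR called 0 against control, and DESeq2 330, 173 and 404 at the 3 times (1 at 405 min with filterByExpr or no filter). From 45 to 405 min over 4% it was 0 by edgeR, 6 with filterByExpr and 62 by DESeq2, and from 45 to 135 min 0 and 3. At 135 min within 4% or less it was 0, 8 with filterByExpr and 0 to 468 when a library was left out. The cause of these shifts was not tested.

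With the replicate number as a block, 0 members were called between the kinds of library and Hist4h4 was at -2.76. In the comparisons with control the block left the count of called members at 0. The labels do not say that a number marks a shared batch. Of 24 same-numbered pairs 14 had r above 0.1. All 4 pairs of 45 and 135 min did (0.474 to 0.529), where replicates 1 and 2 are over 4% at both times and 3 and 4 are not, but pairs with control (3 of 4 at 45 and at 135 min, 0 of 4 at 405 min) did not all do so. The numbers were therefore not used as pairs, though whether some libraries share a batch was not tested. Depth limits the 9 libraries most, in which 46 members had a median of 0.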
